A study of Gallus gallus with 858 samples.

Results

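The expression of WNT9B (ENSGALG00000001097) and WNT11 (ENSGALG00000000839), the genes of 2 secreted Wnt ligands among 24356 measured genes, was followed cell by cell in the chick ear and epibranchial territory. Both were taken by identifier. Chick embryos were electroporated at the head fold stage with pTK-Pax2E1-EGFP, in which a Pax2 enhancer with a TK promoter drives EGFP, and single EGFP+ cells were sorted for SmartSeq2, which reads full-length cDNA of 1 cell at a time. The stages were 8 to 9 somites (ss8, otic-epibranchial progenitors), 11 to 12 somites (ss11, early placode) and 14 to 15 somites (ss15, late placode). Embryos of all stages carried the same reporter and had no other treatment, and the labels call every cell Pax2+. Of 850 cells, 781 were kept for having at least 500000 counted reads and 1000 genes, while 7 of 280 cells at ss8, 22 at ss11 and 40 at ss15 were left out. Each stage was 1 sort from embryos that the labels do not tell apart. No difference between stages or cell groups therefore has a replicate check, no test was run, and stage cannot be told apart from the batch of sorting. The ss8 cells also differ from the others in sequencer and read layout, as the study's methods give them.

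Wnt ligands are secreted, lipid-modified glycoproteins that bind Frizzled receptors with co-receptors on nearby cells. One branch of the pathway stabilises beta-catenin, which acts with LEF1 and TCF proteins on target genes, and another works without beta-catenin on cell polarity and movement. In the cranial ectoderm, Wnt signalling is known to favour otic over epidermal fate within the Pax2-positive progenitor field. The epibranchial placodes form next to the otic placode and give rise to sensory neurons of cranial ganglia. WNT9B is best known from the mouse, where it is needed for kidney tubule induction and for fusion of the upper lip, and WNT11 from zebrafish and Xenopus, where it acts in gastrulation movements without beta-catenin.

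WNT9B was found in few ss8 cells and in more cells at each later stage. A cell was called positive at 10 CPM or more, where CPM are counts scaled to 1000000 reads of the cell. At ss8 2 cells were positive for WNT9B, a share of 0.733% (exact 95% interval 0.0888 to 2.62). The 12 positive cells of ss11 made up 4.58% (2.39 to 7.86). By ss15 WNT9B was found in 34 cells, or 13.8% (9.77 to 18.8). These intervals, and all others given here, cover counting error only. The share at ss15 was above that at ss11 by 9.24 percentage points (4.27 to 14.5), and the share at ss11 was above that at ss8 by 3.85 points (1.13 to 7.14). The level within positive cells had its lowest value, median and highest value at 20.9, 65.03 and 168.8 CPM at ss11, and at 24.6, 115.7 and 1856 CPM at ss15. The ranges of positive cells at both stages overlapped over most of the ss11 range. Summed over all kept cells, WNT9B stood at 0.436 CPM at ss8, 3.61 CPM at ss11 and 23.4 CPM at ss15. The log2 fold of CPM plus 1 was 2.41 for ss15 over ss11. A single ss15 cell held 26.5% of that stage's WNT9B reads, and the log2 fold was 2.202 without the cell with the most reads at each stage.

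WNT11 was already found at ss8, and its share was not higher at each later stage. The 31 WNT11-positive cells of ss8 made up 11.4% of that stage (7.85 to 15.7). There were 24 WNT11-positive cells at ss11, a share of 9.16% (5.96 to 13.3). At ss15 WNT11 was found in 40 cells (16.3%, 11.9 to 21.5). The difference of ss11 and ss8 was -2.195 percentage points with an interval that spans 0 (-7.41 to 3.04), and was not detectable with these cells. The share at ss15 was above that at ss11 by 7.10 points (1.31 to 13), while ss15 and ss8 differed by 4.90 points with an interval that spans 0 (-1.04 to 10.97). The lowest, median and highest levels in positive cells were 16.9, 44.1 and 182.7 CPM at ss8, 10.3, 70.6 and 304 CPM at ss11, and 12.2, 72.7 and 668 CPM at ss15. The upper end was thus highest at ss15, with overlap of the 3 stages below it. The summed level was 7.12, 9.09 and 24.2 CPM at ss8, ss11 and ss15, and the log2 fold of CPM plus 1 was 1.32 for ss15 over ss11 and 0.31 for ss11 over ss8. Within ss8 the share on the 3 sorted plates ran between 8.51% and 15.3%, and the log2 fold of ss11 over ss8 was 0.70 without plate 1, 0.015 without plate 2 and 0.28 without plate 3.

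**Figure D1:**
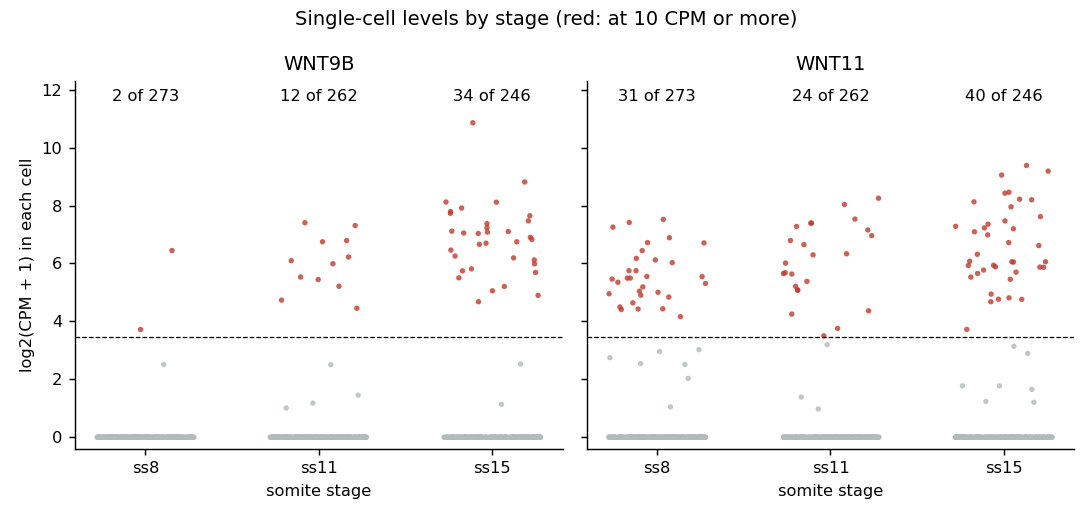
Each point is 1 kept cell, with log2 of CPM plus 1 on the vertical axis and somite stage on the horizontal axis, for WNT9B (left) and WNT11 (right). Red cells are at or above 10 CPM (dashed line), and the counts above each column give 2, 12 and 34 positive cells for WNT9B and 31, 24 and 40 for WNT11.

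Depth was lower at each later stage, and its part in the ligand shares was not tested. Kept ss8 cells had a median of 1252786 reads and 7456 genes, ss11 cells 1031422 reads and 4999 genes, and ss15 cells 843786 reads and 4862 genes. When every cell was thinned to 500000 reads, the share of WNT9B-positive cells was 0.733%, 4.58% and 13.8% and that of WNT11-positive cells 11.7%, 8.78% and 16.3% at ss8, ss11 and ss15. The reporter transcript differed by stage as well. GFP stood at 10 CPM or more in 87.1% of WNT11-positive and 88.8% of WNT11-negative cells at ss8, in 70.8% and 50.8% at ss11, and in 82.5% and 57.3% at ss15. WNT9B-positive cells had a median GFP level of 378 CPM at ss11 and 167.6 CPM at ss15, against 17.98 and 50.9 CPM in WNT9B-negative cells of those stages. The part of the reporter level in the ligand shares was not tested. Among cells with GFP at 10 CPM or more, the WNT9B share at ss15 exceeded that at ss11 by 14.1 points.

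VGLL2-positive cells and SOHO-1-positive cells were compared to ask where the ligand genes lie once otic and epibranchial cells part. VGLL2 encodes a vestigial-like cofactor of TEAD transcription factors that marks pharyngeal and epibranchial ectoderm, and SOHO-1 a homeobox factor of the chick sensory organs that marks the otic placode. Cells at 10 CPM or more of VGLL2 and under 20 CPM of SOHO-1 were called VGLL2-positive, and those under 10 CPM of VGLL2 and at 20 CPM or more of SOHO-1 were called SOHO-1-positive. At ss15 there were 51 VGLL2-positive and 67 SOHO-1-positive cells, with 11 cells past both limits, and at ss11 24 and 55, with 7 past both. The study placed WNT9B, WNT11 and VGLL2 in the same gene module from these cells, so the contrast is a description and not independent evidence. At ss8 only 3 VGLL2-positive and 8 SOHO-1-positive cells were found, too few to compare. The VGLL2 level nearest to its limit was 12.5 CPM inside and 5.79 CPM outside at ss15, and 21.5 and 8.53 CPM at ss11. For SOHO-1 it was 25.4 CPM inside and 8.18 CPM outside at ss15, and 24.3 and 16.7 CPM at ss11.

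WNT9B was found on the VGLL2 side alone among cells of the 2 groups. At ss15 23 of 51 VGLL2-positive cells were positive for WNT9B (45.1%, 31.1 to 59.7), against 0 of 67 SOHO-1-positive cells, which allows a share of up to 4.48% by a limit of 3 cells (exact upper bound 5.36%). At ss11 the counts were 3 of 24 VGLL2-positive cells (12.5%, 2.66 to 32.4), against 0 of 55 SOHO-1-positive cells, which allows up to 5.45% by the same limit (exact upper bound 6.49%). The difference was 45.1 points at ss15 (31.2 to 58.6) and 12.5 points at ss11 (2.05 to 31). Not 1 read of WNT9B was counted in the SOHO-1-positive cells of either stage, against 2441 reads in VGLL2-positive cells at ss15 and 293 at ss11. In VGLL2-positive cells the level was 54.1 CPM at ss15 and 12.2 CPM at ss11. These are 1113 and 228.6 times a floor of 3 reads over all SOHO-1-positive cells of the stage. The ratios count reads and give no least fold, since 1 positive cell can hold many reads. The exact share bounds above still allow WNT9B-positive cells in the SOHO-1-positive group. At ss11 the level of VGLL2-positive cells rested on few of them, since 1 held 58.02% of the reads. Without that cell the difference of VGLL2-positive and SOHO-1-positive cells was 5.48 CPM. Among genes at 10 CPM or more in either group, 8.74% were 2-fold or more higher in VGLL2-positive than in SOHO-1-positive cells at ss15 and 10.4% at ss11, and WNT9B was 1 of these at both stages.

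WNT11 was also higher on the VGLL2 side but not absent from the other. At ss15 23 of 51 VGLL2-positive cells were positive for WNT11 (45.1%, 31.1 to 59.7), against 3 of 67 SOHO-1-positive cells (4.48%, 0.933 to 12.5). At ss11 8 of 24 VGLL2-positive cells (33.3%, 15.6 to 55.3) stood against 2 of 55 SOHO-1-positive cells (3.64%, 0.443 to 12.5). The WNT11-positive cells of the SOHO-1-positive group had 12.2, 27.1 and 66.5 CPM at ss15 and 12.5 and 48.7 CPM at ss11. The median of WNT11-positive cells in the VGLL2-positive group was 65.7 CPM at ss15 and 122.4 CPM at ss11, so the highest of the SOHO-1-positive cells at ss15 lay just above the median of VGLL2-positive cells of its stage. The difference in share was 40.6 points at ss15 (25.6 to 54.5) and 29.7 points at ss11 (12.05 to 49.8). Summed levels were 56.4 CPM in VGLL2-positive and 1.59 CPM in SOHO-1-positive cells at ss15, and 44.9 and 1.42 CPM at ss11, with log2 folds of 4.47 and 4.24.

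Between stages, the share of WNT9B within VGLL2-positive cells was 32.6 points higher at ss15 than at ss11 (10.1 to 48.4). For WNT11 the same step was 11.8 points with an interval that spans 0 (-11.96 to 32.2). Whether the steps of both genes differ was not tested. VGLL2-positive cells themselves took a larger share at ss15, since VGLL2 at 10 CPM or more was found in 62 cells at ss15 (25.2%) and in 31 at ss11 (11.8%).

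**Figure D2:**
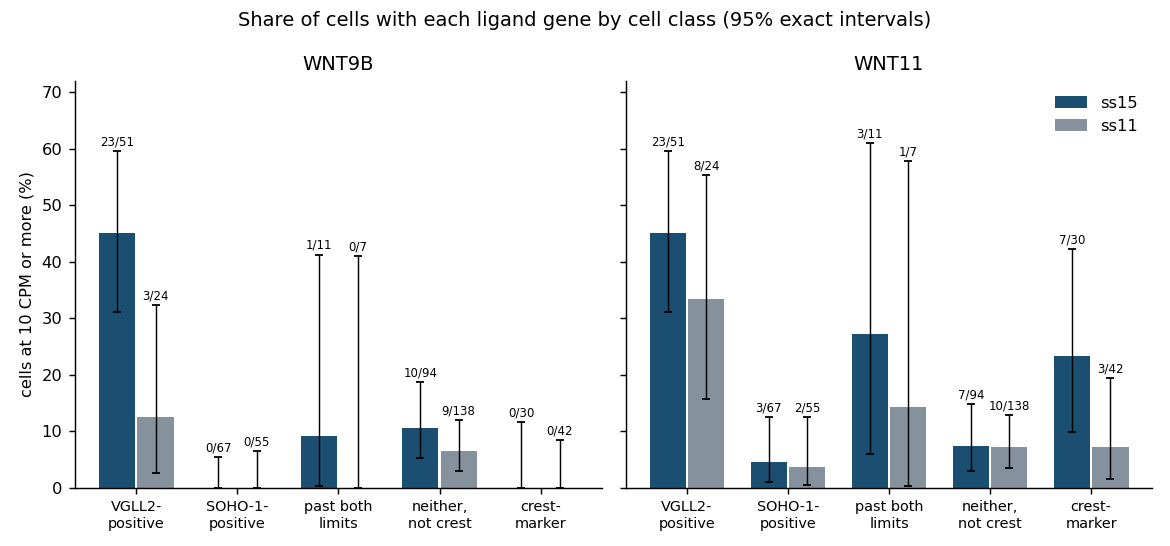
Bars give the percentage of cells at 10 CPM or more of WNT9B (left) and WNT11 (right) in each cell class, at ss15 (dark) and ss11 (grey), with exact 95% intervals and the counts above them. VGLL2-positive cells stand at 45.1% for both genes at ss15, and crest-marker cells and SOHO-1-positive cells at 0 for WNT9B.

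Cells were also divided by their VGLL2 level. At ss15 WNT9B was found in 10 cells under 1 CPM of VGLL2 (5.52%), in 4 of 11 cells between 10 and 50 CPM (36.4%), in 10 of 24 between 50 and 150 CPM (41.7%) and in 10 of 27 above that (37.04%). WNT11 was found in 13 (7.18%), 3 (27.3%), 11 (45.8%) and 12 (44.4%) of the same cells. The exact intervals of the 3 upper classes overlapped for both genes at ss15. At ss11 WNT9B was found in 8 cells under 1 CPM of VGLL2 (3.57%), in 0 of 3, 0 of 16 and 3 of 12 cells of the 3 upper classes, and WNT11 in 14 cells under 1 CPM (6.25%), then in 0 of 3, 5 of 16 and 4 of 12. The 3 WNT9B-positive ss11 cells at 10 CPM or more of VGLL2 thus all lay in the class above 150 CPM, unlike those of ss15, and this difference was not tested. In 11 ss15 cells past both the VGLL2 and the SOHO-1 limit, 1 was positive for WNT9B (9.09%, 0.230 to 41.3) and 3 for WNT11 (27.3%, 6.02 to 60.97). These 3 WNT11-positive cells had 11092, 10446 and 7280 genes, against a median of 4862.5 over kept ss15 cells. Whether any of these libraries held more than 1 cell was not tested.

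Neither ligand gene was confined to VGLL2-positive cells. Of 34 WNT9B-positive cells at ss15, 23 were VGLL2-positive, 1 was past both limits and 10 were past neither. Of 12 such cells at ss11, 3 were VGLL2-positive and 9 were past neither limit. For WNT11, 23 of 40 positive cells at ss15 were VGLL2-positive, 3 were SOHO-1-positive, 3 were past both limits and 11 past neither. At ss11 8 of 24 were VGLL2-positive, 2 were SOHO-1-positive, 1 was past both limits and 13 were past neither. Outside both gates, WNT9B thus had most of its positive cells at ss11 and less than a majority at ss15.

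Both ligand genes were often, but not always, found in the same cell. At ss15 18 cells carried both, 16 WNT9B without WNT11, 22 WNT11 without WNT9B, and 190 neither. WNT11 was found in 18 of 34 WNT9B-positive cells (52.9%, 35.1 to 70.2), against 10.4% of the remaining cells (6.62 to 15.3), a difference of 42.6 points (25.7 to 58.5). At ss11 4 cells carried both, 8 WNT9B alone and 20 WNT11 alone, and WNT11 was found in 33.3% of WNT9B-positive cells (9.92 to 65.1), against 8.0% of the others (4.96 to 12.1). Within the 51 VGLL2-positive ss15 cells, 14 carried both, 9 WNT9B alone, 9 WNT11 alone and 19 neither. The rank correlation of their CPM was 0.17 over the kept cells of ss8, 0.18 over those of ss11 and 0.42 over those of ss15, and 0.23 over the VGLL2-positive cells of ss15. Most of these cells hold no read of either gene, so the values describe shared presence, and cells of a stage share a sort.

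**Figure D3:**
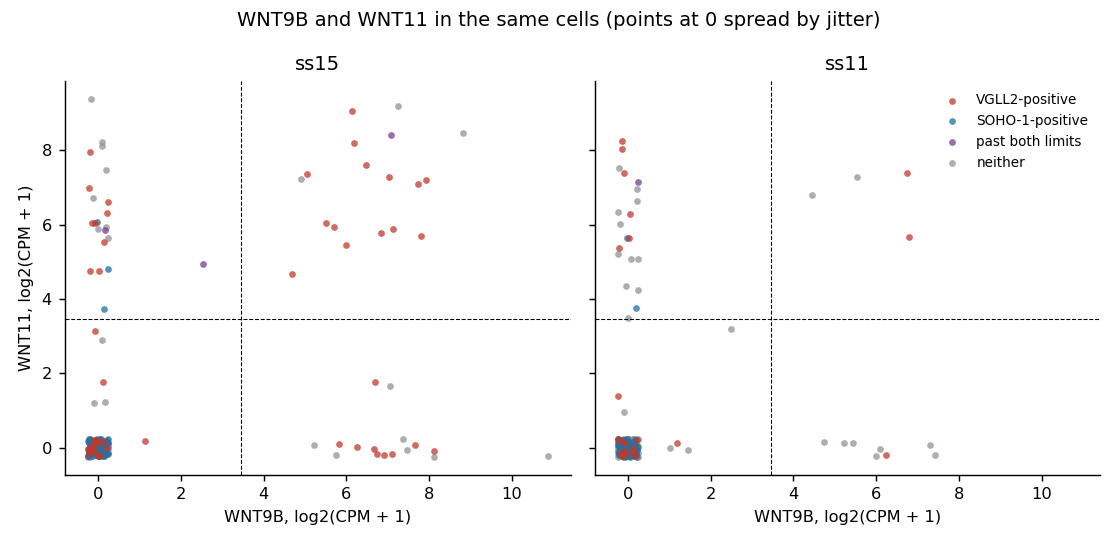
Each point is 1 kept cell with log2 of CPM plus 1 of WNT9B (horizontal) and WNT11 (vertical), at ss15 (left) and ss11 (right), coloured by the VGLL2 and SOHO-1 limits. The upper right field, past 10 CPM of both genes (dashed lines), holds 18 cells at ss15, of which 14 are VGLL2-positive, and 4 cells at ss11.

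The 2 WNT9B-positive cells of ss8 stood apart from most cells of that stage. They had 86.2 and 12.2 CPM of WNT9B and, in the same order, 28.9 and 104.4 CPM of WNT11, 235.3 and 261.04 CPM of ISL1, a LIM homeobox factor, and 107.8 and 48.7 CPM of TLX1, a homeobox factor of cranial sensory precursors. No VGLL2 read was counted in either. Each carried 7 of 8 epibranchial markers (ISL1, KRT18, NELL1, PDLIM1, PRDM1, TFAP2E, UPK1B and VGLL2) and none of the 6 neural crest markers. The ss8 cells without a ligand carried a median of 2 epibranchial markers, but at most 7 as well. Each of the 2 cells also carried 2 of 5 heart markers, against a median of 0 and at most 5 in ss8 cells without a ligand. NKX2-5 was found in both, and TNNT2 and HAND1 in 1 each, against 3.72%, 4.13% and 0.826% of ss8 cells without a ligand. TLX1 was found in 5 ss8 cells, and 4 of these 5 were positive for WNT11 and 2 for WNT9B.

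At ss15 the share of ligand-positive cells was highest among cells with both TLX1 and VGLL2. These groups were formed whatever the SOHO-1 level. Of 21 cells at 10 CPM or more of both, 18 were positive for WNT11 (85.7%, 63.7 to 96.95) and 12 for WNT9B (57.1%, 34.02 to 78.2). Of 41 cells with VGLL2 and no TLX1 at that limit, 8 were positive for WNT11 (19.5%, 8.82 to 34.9) and 12 for WNT9B (29.3%, 16.1 to 45.5). Of 17 cells with TLX1 and without VGLL2, 6 were positive for WNT11 (35.3%, 14.2 to 61.7) and 4 for WNT9B (23.5%, 6.81 to 49.9). Of the cells with neither, 8 were positive for WNT11 (4.79%) and 6 for WNT9B (3.59%). For WNT11 the exact interval of cells with both factors began at 63.7%, and the highest of the other 3 groups ended at 61.7%. For WNT9B the interval of cells with both factors overlapped those of both single-factor groups. These intervals cover counting error over cells that share a sort, so the narrow gap for WNT11 is not a test. The study placed VGLL2 and both ligand genes in the same gene module from these cells, so the order of shares is a description. Levels did not follow the same order, since WNT9B stood at 63.7 CPM in cells with both factors and at 128.8 CPM in cells with TLX1 and without VGLL2, where the cell richest in WNT9B lies. For WNT11 these levels were 104.6 and 96.2 CPM. At ss11 the order of shares was not seen, with WNT11 in 3 of 10 cells with both, 6 of 21 with VGLL2 and 4 of 14 with TLX1. ISL1-positive cells held 26 of the 40 WNT11-positive and 23 of the 34 WNT9B-positive cells at ss15.

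Cells with WNT9B and cells with WNT11 alone differed in the genes they carried with the ligand. At ss15 NELL1, a secreted factor with EGF-like repeats, was found in 13 of 16 cells with WNT9B alone (81.2%, 54.4 to 95.95), 14 of 18 with both ligands (77.8%, 52.4 to 93.6), 9 of 22 with WNT11 alone (40.9%, 20.7 to 63.6) and 53 of 190 with neither (27.9%, 21.6 to 34.8). CHST9, a carbohydrate sulfotransferase, gave 12 of 16, 14 of 18, 7 of 22 and 25 of 190 cells in that order. The epithelial adhesion gene EPCAM was found in all 34 WNT9B-positive cells and in 15 of 22 with WNT11 alone (68.2%). Cells with 4 or more neural crest markers made up 7 of these 22 cells and 0 of the WNT9B-positive cells. Of these 7 cells, only the cell at 702 CPM of EPCAM had any read of EPCAM or of NELL1 (29.8 CPM). The part of these 7 cells in the NELL1, CHST9 and EPCAM shares was not tested. FGF8, a secreted growth factor, divided the cells the other way. It was found in 3 of 16 cells with WNT9B alone (18.8%, 4.05 to 45.6), 14 of 18 with both (77.8%, 52.4 to 93.6), 14 of 22 with WNT11 alone (63.6%, 40.7 to 82.8) and 25 of 190 with neither (13.2%, 8.70 to 18.8). TLX1 had the same order, with 3 of 16, 13 of 18, 11 of 22 and 11 of 190 cells. At ss11, where 8 cells had WNT9B alone, FGF8 was found in 1 of 8, 3 of 4, 6 of 20 and 29 of 230 cells. TLX1 did not hold its ss15 order there, with 3 of 8, 1 of 4, 6 of 20 and 14 of 230 cells.

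Markers of other tissues were measured beside these shares. The otic and crest factor SOX10 was found in 2 of 34 WNT9B-positive cells at ss15 (5.88%), against 54.2% of WNT9B-negative cells, and in 10 of 40 WNT11-positive cells (25%), against 51.9% of WNT11-negative cells. Crest-marker cells, defined by 4 or more of PAX7, FOXD3, TFAP2B, DRAXIN, RXRG and EDNRB, numbered 51 at ss8, 42 at ss11 and 30 at ss15. WNT9B had no read in any crest-marker cell of the 3 stages, which allows a share of up to 2.44% by a limit of 3 cells (exact upper bound 2.95%). WNT11 was positive in 11 of the 51 crest-marker cells of ss8 (21.6%, 11.3 to 35.3). At ss11 it was positive in 3 (7.14%, 1.498 to 19.5), and by ss15 in 7 (23.3%, 9.93 to 42.3). Crest-marker cells thus made up 11 of the 31 WNT11-positive cells at ss8, 3 of 24 at ss11 and 7 of 40 at ss15. Without them the WNT11 level of ss11 over ss8 had a log2 fold of 0.76. The mesoderm factor TWIST1 was found in 39 cells over the 3 stages, of which 0 were positive for WNT9B and 1 for WNT11. NKX2-5, a homeobox factor of heart and pharyngeal tissue, was more frequent in WNT11-positive cells than in cells without a ligand at ss15 and ss8. It was found in 36.4% of ss15 cells with WNT11 alone (17.2 to 59.3) and 33.3% with both ligands (13.3 to 59.01), against 4.21% with neither (1.84 to 8.13), and at ss8 in 20.7% of cells with WNT11 alone (7.99 to 39.7), against 3.72% with neither (1.71 to 6.94). TBX5 was found in 0 of 22 and MEF2C in 3 of 22 ss15 cells with WNT11 alone. The summed level of NKX2-5, TNNT2, TBX5, HAND1 and MEF2C ran between 0 and 292 CPM in WNT11-positive ss15 cells and between 0 and 331 CPM in cells with neither ligand. WNT11-positive cells carried a median of 0.5 and at most 3 of these 5 markers at ss15, and a median of 0 and at most 1 at ss11. Cells with neither ligand carried a median of 0 and at most 2 at ss15 and at ss11. At ss8 the median was 0 and the highest number 5 in WNT11-positive cells and in cells with neither ligand. The summed level at ss8 reached 557 CPM in the former and 4183 CPM in the latter. Whether NKX2-5 goes with WNT11 more than with WNT9B was not tested. The part of crest or heart-related cells in the WNT11 shares was not tested.

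**Figure D4:**
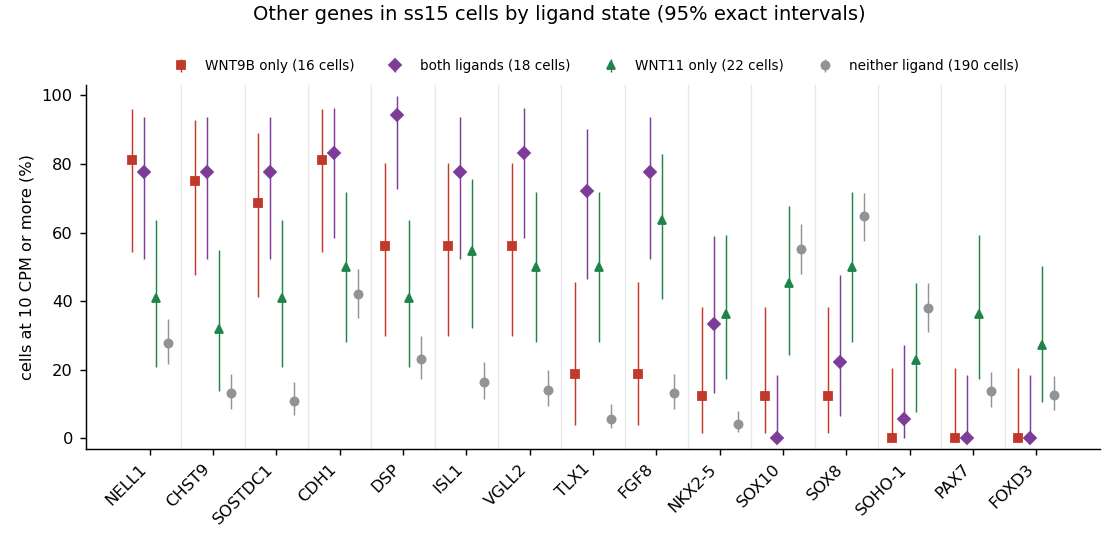
Points give the percentage of ss15 cells at 10 CPM or more of each named gene, by ligand state, with exact 95% intervals. NELL1, CHST9 and CDH1 are highest in both WNT9B groups, FGF8 and TLX1 in the groups with both ligands or WNT11 alone, and PAX7 and FOXD3 are at 0 in both WNT9B groups.

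Over cells, the genes with a known symbol whose level was most like WNT9B were DSP (desmoplakin of cell junctions), SOSTDC1 (a secreted antagonist of Wnt co-receptors and BMPs), PLEKHS1, NELL1 and CHST9. The smaller of the 2 rank correlations, over ss15 and over ss11 cells, was 0.35 for DSP, 0.33 for SOSTDC1, 0.32 for PLEKHS1, 0.31 for NELL1 and 0.30 for CHST9, among 8918 genes, few of which had a symbol. For WNT11 they were ISL1 (0.32), FGF8 (0.32), VGLL2 (0.30), KAZALD1 (0.23), a secreted protein related to IGF-binding proteins, and PDLIM1 (0.22), an actin-linked adaptor. ISL1, FGF8 and VGLL2 held the first 3 places among all 8918 genes for WNT11. These values are low and describe sparse counts.

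The remaining Wnt pathway was covered thinly, as 11 of 88 listed genes could be matched to an identifier. Only genes named in the study's own tables could be matched, so the 11 are not a random part of the list. Their counts and medians beside those of all measured genes are therefore a description, and include WNT9B and WNT11 wherever these were measured. For ss15 against ss11, 9 of the 11 were measured, which means 10 CPM or more in either group. WNT9B and WNT11 were the 2 that were 2-fold or more higher, while 1.27% of 8797 measured genes were, and DRAXIN, a secreted antagonist that binds the LRP co-receptor, was the 1 that was lower (52.01 CPM at ss15 and 424 CPM at ss11, log2 fold -3.004), while 1.42% of all genes were. The list's median log2 fold was -0.10 and that of all measured genes 0.01. For ss11 against ss8, 8 were measured, without WNT9B and WNT11, which lay under 10 CPM at both stages. Of all 9155 measured genes 23.3% were 2-fold or more higher or lower, and of the 8 list genes TRABD2A and SP5 were. TRABD2A, a membrane metalloprotease that cleaves and inactivates Wnt proteins in Xenopus, was higher (22.3 CPM at ss11 and 8.63 CPM at ss8). SP5, a zinc finger target of beta-catenin signalling, was lower (3.73 CPM at ss11 and 62.7 CPM at ss8, log2 fold -3.75). By cells, SP5 was found in 75.5% of ss8 cells, in 23 ss11 cells (8.78%) and in 17 ss15 cells (6.91%). The shares of LEF1, TCF7L1, SFRP1, DRAXIN and DACT2 were also lower at each later stage. That of TRABD2A was higher at each (12.8%, 14.9% and 19.9%), and that of SOSTDC1 followed neither order (24.9%, 19.8% and 22.4%). The summed level of LEF1 was higher at each later stage (47.2, 53.7 and 68.03 CPM). That of DRAXIN was close at ss8 and ss11 (432 and 424 CPM), and those of TCF7L1, SFRP1 and DACT2 were lower at each. Thinned to equal reads, ss8 cells still had more genes, with a median of 7212 against 4843.5 at ss11 and 4732.5 at ss15. The part of these gene numbers in the lower shares was not tested.

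Antagonists and effectors of the pathway were spread over both sides of the VGLL2 and SOHO-1 contrast. At ss15 4 of 9 measured list genes were higher in VGLL2-positive cells, namely WNT9B, WNT11, TRABD2A and SOSTDC1. Among all measured genes 8.74% were higher at ss15 and 10.4% at ss11. SOSTDC1 had 67.6 CPM in VGLL2-positive and 6.16 CPM in SOHO-1-positive cells at ss15 (log2 fold 3.26), and TRABD2A 46.4 and 7.64 CPM (2.46). At ss11 SOSTDC1 had 62.4 and 26.1 CPM (1.23) and TRABD2A 48.3 and 2.60 CPM (3.78), and the 4 higher genes were WNT9B, WNT11, TRABD2A and SOSTDC1 again. Lower in VGLL2-positive cells at ss15 were 3 genes, SFRP1, a secreted Wnt-binding antagonist (49.8 and 123.5 CPM), DRAXIN (7.34 and 30.4 CPM) and DACT2, a dishevelled-binding regulator that was also in the otic marker list (34.7 and 106.4 CPM). At ss11 they were 4, DRAXIN, DACT2, LEF1 and TCF7L1, of which the last is mostly a repressor of beta-catenin targets. Of all measured genes 9.70% were lower at ss15 and 10.5% at ss11. The list's median log2 fold was 0.48 at ss15 and -0.51 at ss11, against 0.00 and 0.03 over all measured genes. Both list medians count WNT9B and WNT11, whose log2 folds were 5.78 and 4.47 at ss15 and 3.72 and 4.24 at ss11. The medians therefore do not describe the remaining list genes. LEF1 turned, with 50.7 CPM in VGLL2-positive and 35.97 CPM in SOHO-1-positive cells at ss15 (log2 fold 0.48) and 8.79 and 38.9 CPM at ss11 (-2.03), and this turn was not tested. By ligand state, LEF1 was found at ss15 in 5 of 16 cells with WNT9B alone, 7 of 18 with both, 13 of 22 with WNT11 alone (59.1%, 36.4 to 79.3) and 64 of 190 with neither (33.7%, 27 to 40.9). At ss8 the share in cells with WNT11 alone was lower than in cells with neither ligand (55.2% against 62.4%). At ss11 it was slightly higher (45% against 40.4%). Whether the stages differ was not tested.

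WNT9A, the other Wnt ligand gene of the list and a paralogue of WNT9B, had its highest share of positive cells at ss8. It was found in 21 ss8 cells (7.69%), in 3 ss11 cells (1.15%) and in 12 ss15 cells (4.88%). No cell with both WNT9B and WNT11 was positive for it, but these numbered only 2 at ss8, 4 at ss11 and 18 at ss15. At the shares above, so few cells cannot show an absence. An ss8 cell among them held WNT9A at 6.16 CPM, under the limit. Its share at ss15 was above that at ss11 by 3.73 points (0.739 to 7.27), and its share at ss11 differed from that at ss8 by -6.55 points (-10.4 to -3.16). By stage the summed level was under 10 CPM throughout and highest at ss15, with 4.13 CPM at ss8, 0.807 CPM at ss11 and 6.82 CPM at ss15. The log2 fold of ss15 over ss11 was 2.11, but 1 cell held 74.7% of the ss11 reads and 1 cell 47.9% of the ss15 reads. In VGLL2-positive cells at ss15 4 of 51 were positive (7.84%), against 2 of 67 SOHO-1-positive cells (2.99%), a difference of 4.86 points with an interval that spans 0 (-3.82 to 15.7). The summed WNT9A level was 7.07 CPM in VGLL2-positive and 1.74 CPM in SOHO-1-positive cells at ss15 (log2 fold 1.56), in the direction of WNT9B. Whether the genes differ in these steps was not tested.

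**Figure D5:**
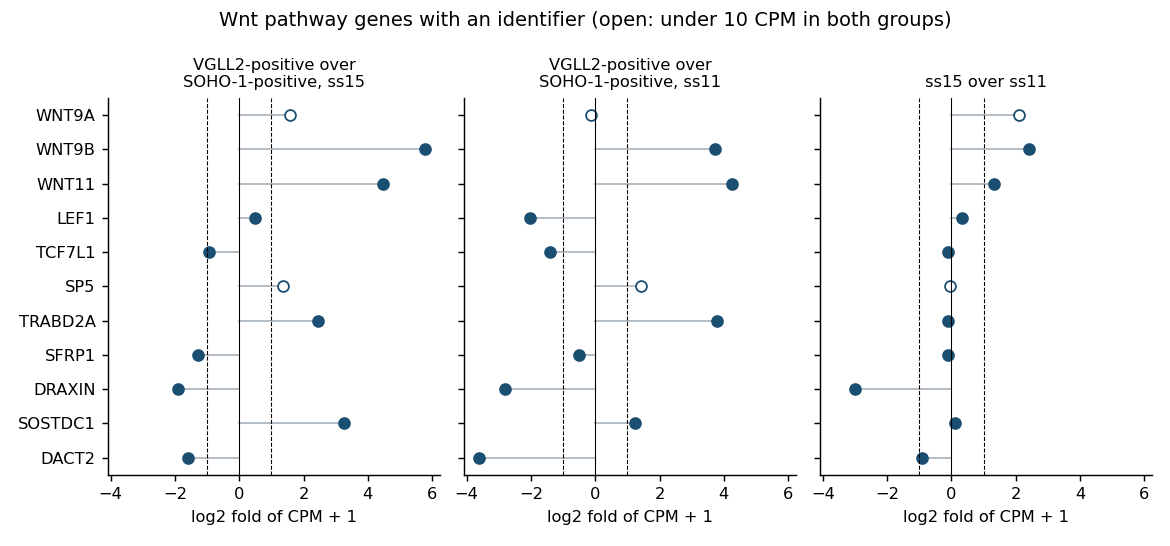
Points give the log2 fold of CPM plus 1 for the 11 matched Wnt pathway genes, in VGLL2-positive over SOHO-1-positive cells at ss15 (left) and ss11 (middle) and in ss15 over ss11 cells (right). Dashed lines mark 2-fold, and open points mark genes under 10 CPM in both groups. WNT9B and WNT11 lie past 2-fold in all 3 panels.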

How the data were processed

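Read counts per gene and cell were taken as the authors deposited them. Their pipeline used cutadapt 2.10 for trimming, HISAT2 2.2.1 with galGal6 plus a GFP sequence for alignment, and SAMtools 1.10 and HTSeq 0.12.4 for counting. Counts hold PCR copies and no strand. In RefSeq (GRCg7b) no annotated gene overlapped WNT9B or WNT11. Symbols came from identifier pairs in the study's tables (332 identifiers), and no sequence was printed because none was held in the tables used here. No limit on mitochondrial reads was set, unlike the 6% of the study.

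At ss8, 8 pairs of libraries correlated at 0.996 to 0.998 (next pair 0.880) and were added up as 1 cell each. Kept cells numbered 273 at ss8, 262 at ss11 and 246 at ss15, or 781 of 850, and had 507328 to 7343424 reads. The sort gated single cells and doublets were not called, so libraries of more than 1 cell can remain. Levels are counts summed over cells and scaled to 1000000 reads (CPM), folds use CPM plus 1, and shares carry exact Clopper-Pearson or Newcombe intervals (scipy 1.17.1). Exact Poisson intervals were used for levels, and edgeR 4.0.16 for TMM factors. Named genes were both ligands, list genes past 2-fold, VGLL2, SOHO-1, TLX1, ISL1 and LEF1, and the 5 most alike genes per ligand. Markers of ligand-positive cells were named after their values were seen. Functions were tested on simulated counts. Members and lists were chosen with earlier results of these data known.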

Additional observations from a re-analysis of the deposited data

Results flagged for a closer look

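LEF1 moved in opposite directions in VGLL2-positive against SOHO-1-positive cells, with a log2 fold of 0.48 at ss15 and -2.03 at ss11. The difference between stages was not tested.

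WNT11 moved in opposite directions between ss11 and ss8 within and outside crest-marker cells. Its log2 fold of ss11 over ss8 was -1.87 in crest-marker cells (2.81 CPM in 42 ss11 cells and 12.97 CPM in 51 ss8 cells) and 0.76 in the other cells (10.3 CPM at ss11 and 5.70 CPM at ss8). This difference was not tested, and each stage is 1 sort.

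Ligand transcripts were also found in ss15 cells that missed the limit on reads or genes. Of 40 such cells 5 were positive for WNT9B (12.5%, 4.19 to 26.8) and 4 for WNT11 (10%, 2.79 to 23.7). Of 22 such ss11 cells and 7 such ss8 cells, 0 were positive for either.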

How the results depend on the processing

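No paired analysis was possible because each stage was 1 sort with no replicate number. Recomputed were the ligand shares and levels by stage and by the VGLL2 and SOHO-1 limits, the Wnt list counts and the joint presence of both ligands. Alternatives were fixed at the outset, and 2 were added after seeing the data. Leaving out crest-marker cells was applied to the stage values. Keeping cells with GFP at 10 CPM or more was applied to these and to the shares by VGLL2 and SOHO-1. Results by TLX1, ligand state, marker and VGLL2 level, the gene correlations and those of WNT9A were not recomputed. Of 150 alternative values, most stayed within the counting interval of the main value (for counts of genes, within 1.5 times) with the same sign. Another 29 moved outside it with the same sign, and 4 changed sign but lay within it. For levels this interval counts summed reads and leaves out the spread over cells. The changes of sign all concern the WNT11 share of ss11 minus ss8 (-2.195 points). It was 0.948 points at a detection limit of 50 CPM and 0.290 with at least 1000000 reads and 2000 genes. Without crest-marker cells it was 0.536, and in cells with GFP 1.16. For the WNT9B log2 fold of ss15 over ss11 the values were 1.82 with at least 1000000 reads and 2000 genes, 2.52 as a mean over cells, 2.66 with a pseudocount of 0.1 CPM, 2.202 without the top cell of each stage and 2.71 with GFP. For WNT9B at ss11 over ss8 they were 2.79 with that pseudocount, 1.91 without the top cells, and 1.49 to 2.12 when 1 ss8 plate was left out. For WNT11 they were 1.55 (deeper cells) and 1.43 (no limit on cells) at ss15 over ss11, and at ss11 over ss8 0.43 (deeper cells), 0.76 (without crest-marker cells), 0.70 (GFP) and 0.015 to 0.70 over the plates. The level difference of VGLL2-positive minus SOHO-1-positive cells was, with cells past both limits kept in both groups, 43.8 CPM at ss15 and 9.39 CPM at ss11 for WNT9B and 45.8 and 35.9 CPM for WNT11. Without the top cell of each group it was 48.9 and 5.48 CPM for WNT9B and 44.97 and 34.4 CPM for WNT11. At ss11 it was 9.86 CPM for WNT9B with limits of 5 and 10 CPM and 15.5 CPM in thinned cells, and at ss15 60.7 CPM for WNT11 with limits of 20 and 40 CPM. At 1.5-fold, 2 list genes were lower at ss15 against ss11 and 3 at ss11 against ss8. The causes were not tested. With 1 sort per stage, differences between embryos have no estimate here, and shares in groups under 25 cells have wide intervals.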

Other observations

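The ss15 cell with the highest WNT9B level, 1856 CPM, had no VGLL2 or WNT11 read, 2958 CPM of TLX1, 76.1 CPM of ISL1, 2383 CPM of EPCAM and 525 CPM of CDH1, and only 1275 genes in 735521 reads. The next cell, at 449 CPM of WNT9B, had 351 CPM of WNT11, 2520 CPM of TLX1 and 2478 genes, again with no VGLL2 read. Of the 3 ss15 cells with over 500 CPM of WNT11, 2 lacked VGLL2 and had 836 and 2211 CPM of TLX1, and the third had 63.8 CPM of TLX1 and 41.2 CPM of VGLL2. These cells were singled out after their values were seen.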
